A study of Mus musculus with 10 samples.

Results

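The genes described here encode the chaperones, degradation factors and stress sensors of the endoplasmic reticulum (ER), with Manf first among them. They are 35 genes of 18193 that had at least 1 probe set with a single gene symbol on the array. The list was drawn up by function, with earlier results of these data known. The list falls into 15 chaperones and folding enzymes, 7 factors of ER-associated degradation, 3 subunits of the protein entry machinery and 10 sensors and members of the PERK-ATF4 branch. All 35 had their representative probe set above the filter on low signal, so none was lost before testing. Together they have 89 probe sets, 85 of them above the filter.

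The samples were livers of 10 mice, each hybridised to its own Affymetrix mouse expression array. All 10 carried the ApoE-/- genotype per the labels. An adenovirus with GFP, a fluorescent protein, was given to 5 of them (control 11 to 15), and an adenovirus with a dominant negative form of cJun, one of the proteins that make up AP-1, to the other 5 (dn-cJun 16 to 20). Strain, age, sex, viral dose and time after infection are not stated in the sources used here. Every group here received a virus, so no difference is against livers without a virus. The groups also differed in Apoe signal, and 2 of the controls in Xist, as given below. The viral cDNA can reach every cell the virus enters, and whole liver was measured, so fewer cells of a type and less RNA per cell cannot be told apart.

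Proteins that enter the ER are folded there by BiP, the product of Hspa5, by its relatives and by lectin chaperones and disulfide isomerases. When unfolded proteins build up, BiP leaves the sensors IRE1 (Ern1), ATF6 and PERK (Eif2ak3), and the unfolded protein response begins. IRE1 splices Xbp1 mRNA, which then encodes a factor that induces chaperones and degradation genes. ATF6 is cut into a factor that binds chaperone promoters, and PERK slows translation while it favours that of Atf4, whose targets include CHOP (Ddit3), Trib3 and Asns. Hepatocytes secrete most plasma proteins and therefore keep this machinery at a high level.

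Signals are given as quantile-normalized log2(intensity + 16), and a difference is always the mean of the arrays labelled dn-cJun minus the mean of the controls, tested with limma. The median deposited intensity of an array was 85.3 to 127 and arrays correlated at 0.948 to 0.965. Apoe went against its label in one group: its log2 signal was 9.42 to 10.94 among controls and 15.31 to 15.82 in the other 5 arrays. The latter are for that reason called "labelled dn-cJun", and every direction below is between groups that also differ in Apoe signal. Both Jun probe sets gave small differences, -0.07 (SE 0.16) and -0.11 (SE 0.23), and the sources used here do not say whether they can read the viral cDNA. Controls 14 and 15 had Xist, which coats the silenced X chromosome, at 13.71 and 13.63 against 5.90 to 6.72 in the other 8 arrays, and Y-linked Eif2s3y at 5.22 and 4.08 against 10.58 to 11.13. For members of the list, changes when these 2 arrays are left out are given beside the results or in the closing section. The further gene lists and cell markers below were not examined without them. Hepatocyte markers were well above the filter in all 8 of 8 genes measured. The log2 ratio of 3 prime to 5 prime control probe sets, a measure of RNA integrity, was 0.35 to 0.45 among controls and 0.47 to 0.63 in the labelled dn-cJun arrays for Actb (two-sided exact permutation p = 0.00794, 0.0159 adjusted over 2 genes). It overlapped for Gapdh, at -0.47 to -0.39 and -0.54 to -0.35 (exact p = 0.405). The part of RNA integrity in the differences below was not tested.

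The 15 chaperones and folding enzymes of the list were mostly lower in the labelled dn-cJun arrays, with Manf and the BiP partner Dnajb11 past the threshold. Of 31 further folding and quality control genes, described below, 20 were above 0. Herpud1 of ER-associated degradation was higher at an unadjusted p. On representative probe sets no member of the sensor and PERK-ATF4 arm passed. In the fit with every probe set as a unit, 2 further Xbp1 probe sets of that arm passed, both lower. Over all 35 genes, 2 passed an adjusted p under 0.05, both lower (against 0.777% of the 12736 genes tested in either direction and 0.432% lower). At an unadjusted p under 0.05 there were 9 members, 25.7% against 14.9% of all genes, and 7 when controls 14 and 15 were dropped. Of these, 7 were lower, where 7.47% of all genes were lower at that p, and 2 were higher, where 7.42% were. All 7 lower ones were chaperones or folding enzymes. In the further ER and chaperone lists described below, the share at that p ran from 11.1% (mitochondrial chaperones) to 25.7% (other ATF4 targets). Groups of arrays did not overlap in 3 members, Manf, Dnajb11 and Hspa5, where this held for 4.22% of all genes.

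**Figure D1:**
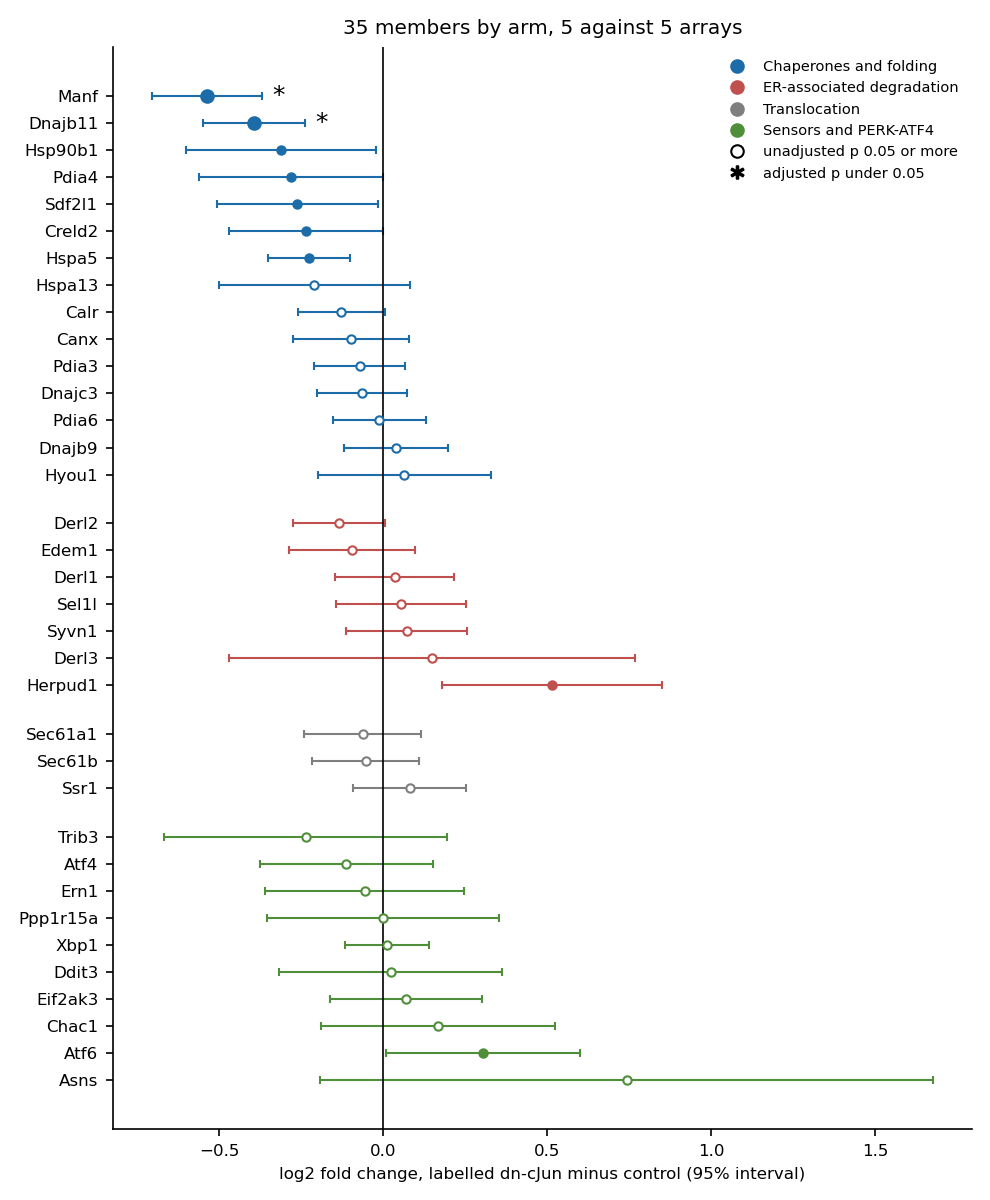
Log2 fold change of each of the 35 genes, arrays labelled dn-cJun minus control, with its 95% interval from limma (5 against 5 arrays), grouped and coloured by arm. Filled points have an unadjusted p under 0.05 and the stars mark Manf and Dnajb11, at -0.54 and -0.39, the members past the adjusted threshold.

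Of the chaperone arm, 13 of 15 members had a difference below 0, with a median of -0.21, where 49.7% of all genes were below 0 and the median of all genes was 0.0015. Manf encodes a small ER protein that is induced by ER stress, binds BiP and is also secreted. Its log2 signal was 12.47, 12.35, 12.29, 12.17 and 12.53 in controls 11 to 15, and 11.82, 11.88, 11.89, 11.85 and 11.68 in dn-cJun arrays 16 to 20. The lowest control lay above the highest array labelled dn-cJun. Manf fell from 12.36 ± 0.14 to 11.82 ± 0.09 (SD, n = 5 each), at -0.54 on the log2 scale (SE 0.08), or 1.45-fold lower (limma adjusted p = 0.0114). Each of the 10 fits that dropped a single array kept this call, at -0.58 to -0.50. So did the fit that dropped controls 14 and 15 (-0.55, limma adjusted p = 0.0170). With eBayes lacking the intensity trend the adjusted p was 0.0702. Manf has 1 probe set, so no other probe set bears on it.

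Dnajb11 encodes a DnaJ protein of the ER lumen that hands unfolded clients to BiP. It measured 10.92, 11.10, 10.94, 10.98 and 10.83 in the controls and 10.55, 10.64, 10.59, 10.51 and 10.50 in the labelled dn-cJun arrays, again with no overlap. Dnajb11 fell by 0.39 on the log2 scale with a standard error of 0.07, 1.31-fold lower (limma adjusted p = 0.0294). The call was lost, at adjusted p of 0.0571 to 0.0797, in 7 of 10 fits that dropped a single array, namely control 13, control 14 or any of the arrays labelled dn-cJun. It was also lost without controls 14 and 15 (-0.43, limma adjusted p = 0.0554). The size of the difference stayed between -0.43 and -0.36 in the 10 fits.

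BiP itself was lower by a smaller margin on the probe set with the highest signal. Hspa5 measured 13.86, 14.05, 13.96, 13.95 and 14.10 in the controls and 13.69, 13.77, 13.76, 13.80 and 13.76 in the labelled dn-cJun arrays. These ranges did not overlap, with a log2 difference of -0.23 (SE 0.06, limma adjusted p = 0.0935). With each array scaled to the same trimmed mean the difference was -0.13 (limma adjusted p = 0.481), and without normalization between arrays it was -0.32 (limma adjusted p = 0.0247). The second Hspa5 probe set, had 13.39, 13.16, 13.16, 12.96 and 13.29 in the controls and 12.76, 12.66, 12.60, 12.52 and 12.41 in the labelled dn-cJun arrays. There the log2 difference was -0.60 (SE 0.09), and it passed in the fit with every probe set as a unit (limma adjusted p = 0.00813). The third Hspa5 probe set, was at 0.03 (SE 0.14). The 3 probe sets of this gene thus did not give the same size, and their positions in the transcript are not stated in the sources used here.

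Hsp90b1 encodes the Hsp90 chaperone of the ER. Its representative probe set was at -0.31 (SE 0.13, limma adjusted p = 0.298). It measured 14.13, 13.24, 13.43, 13.38 and 13.52 in the controls and 13.39, 13.12, 13.26, 13.22 and 13.15 in the labelled dn-cJun arrays. The groups overlap, control 11 was the highest array, and without it the difference was -0.17. The other probe set had 13.14, 13.07, 13.05, 13.29 and 13.15 in the controls and 12.80, 12.91, 12.93, 12.81 and 12.72 in the labelled dn-cJun arrays. Its difference was -0.31 (SE 0.07), and its groups did not overlap, though it did not pass (limma adjusted p = 0.0543 with every probe set as a unit).

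**Figure D2:**
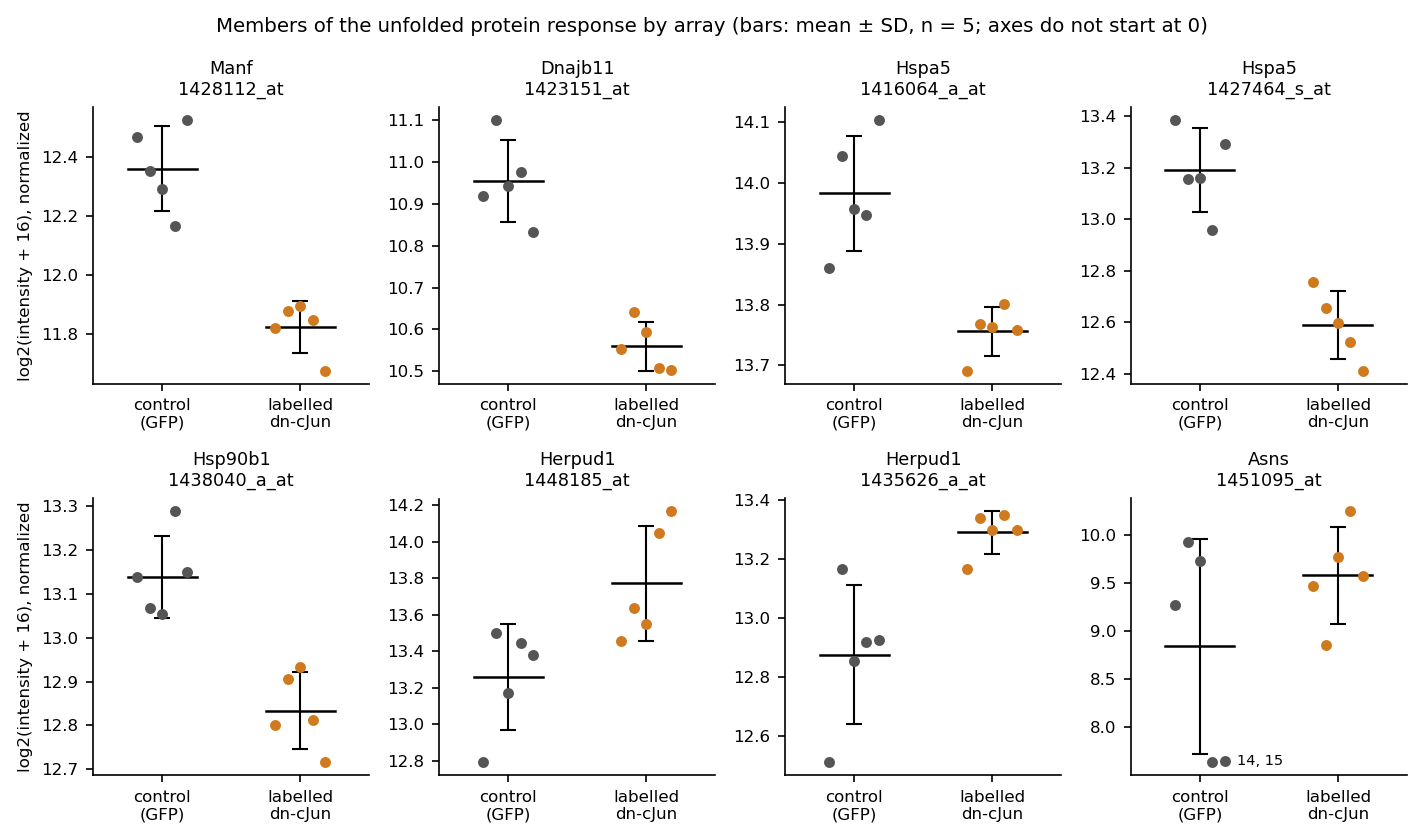
Normalized log2(intensity + 16) in each array for 8 probe sets of 6 genes, controls in grey and arrays labelled dn-cJun in orange, with the mean and SD of 5 arrays. Manf, Dnajb11, both Hspa5 panels and the second Hsp90b1 probe set, the one drawn, show no overlap on the lower side, the second Herpud1 panel shows none on the higher side, and Asns is at 7.64 and 7.65 in controls 14 and 15.

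The other chaperone arm members with an unadjusted p under 0.05 overlapped between the groups. Pdia4, a disulfide isomerase, was at -0.28 (SE 0.13), with 10.94 to 11.50 among controls and 10.59 to 11.15 in the labelled dn-cJun arrays. Sdf2l1, which forms a complex with Dnajb11, was at -0.26 (SE 0.11), and Creld2, an ER protein induced by stress, at -0.24 (SE 0.11). None of these 3 passed over all genes (limma adjusted p = 0.333, 0.306 and 0.331). Dropping controls 14 and 15 gave -0.17 for Pdia4, -0.21 for Sdf2l1 and -0.099 for Creld2, and none of the 3 then had an unadjusted p under 0.05 (limma adjusted p = 0.643, 0.545 and 0.730). The second Pdia4 probe set was at -0.55 (SE 0.27). The array dn-cJun 20 was the lowest of all 10 for Pdia4 and Sdf2l1, at 10.59 and 9.71, and dn-cJun 16 for Creld2, at 10.58.

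The lectin chaperones and the remaining co-factors had no unadjusted p under 0.05 on their representative probe sets. Calr (calreticulin) and Canx (calnexin) hold glycoproteins during folding and were at -0.13 (SE 0.06) and -0.10 (SE 0.08), and Pdia3, the isomerase that works with them, was at -0.07 (SE 0.06). Hspa13, an Hsp70 relative of the ER, was at -0.21 (SE 0.13), and Dnajc3, a co-chaperone of BiP, at -0.07 (SE 0.06). Pdia6, a disulfide isomerase that also binds IRE1, was at -0.01 (SE 0.07), with a 95% interval of -0.15 to 0.13. Hyou1 is the nucleotide exchange factor of BiP, and Dnajb9 is a co-chaperone that acts on IRE1. On representative probe sets these 2 alone were above 0 in this arm, at 0.06 (SE 0.12) and 0.04 (SE 0.07). Further probe sets gave other sizes for Calr, at -0.13 (SE 0.07) and -0.31 (SE 0.09), and for Canx, at -0.18 (SE 0.08) and 0.01 (SE 0.13). Of these, the Calr set at -0.31 and the Canx set at -0.18 had an unadjusted p under 0.05, and neither passed over all probe sets (limma adjusted p = 0.144 and 0.324). Dropping controls 14 and 15 gave -0.17 for Calr and -0.34 for Hspa13, each with an unadjusted p under 0.05 (limma adjusted p = 0.324 and 0.305). The 2 further Hyou1 probe sets were at -0.17 and -0.18. Further probe sets of Hspa13 were at -0.37, 0.29 and -0.22, and those of Dnajc3 at -0.02, -0.06, 0.10 and -0.23. Of the 34 probe sets of this arm, 6 were above 0. The limma adjusted p was 0.349 for Calr and 0.499 to 0.953 for the other 7 of these genes.

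Averaged over the 15 genes, each centred over the arrays, the chaperone arm was at 0.19, 0.08, 0.01, 0.06 and 0.11 in controls 11 to 15 and at -0.14, -0.02, -0.04, -0.04 and -0.22 in the labelled dn-cJun arrays 16 to 20. The groups did not overlap in these quantile-normalized values, with control 13 and dn-cJun 17 closest, at 0.01 and -0.02. This mean was not computed under other scalings, and the difference between arms was not tested. Under the 23 other settings that also used 1 value per gene, 11 to 15 of the 15 members were below 0. All 15 were below 0 only without normalization between arrays, where 11 of the 15 lay below the median of all genes. Without normalization between arrays the median of all genes was at -0.19, and the arm's median was -0.32, a distance of -0.13 from it. With equal array medians or equal trimmed means it was -0.16 or -0.13, beside -0.03 and -0.01 for all genes. Without controls 14 and 15 the arm's median was -0.17, beside 0.0068 for all genes.

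**Figure D3:**
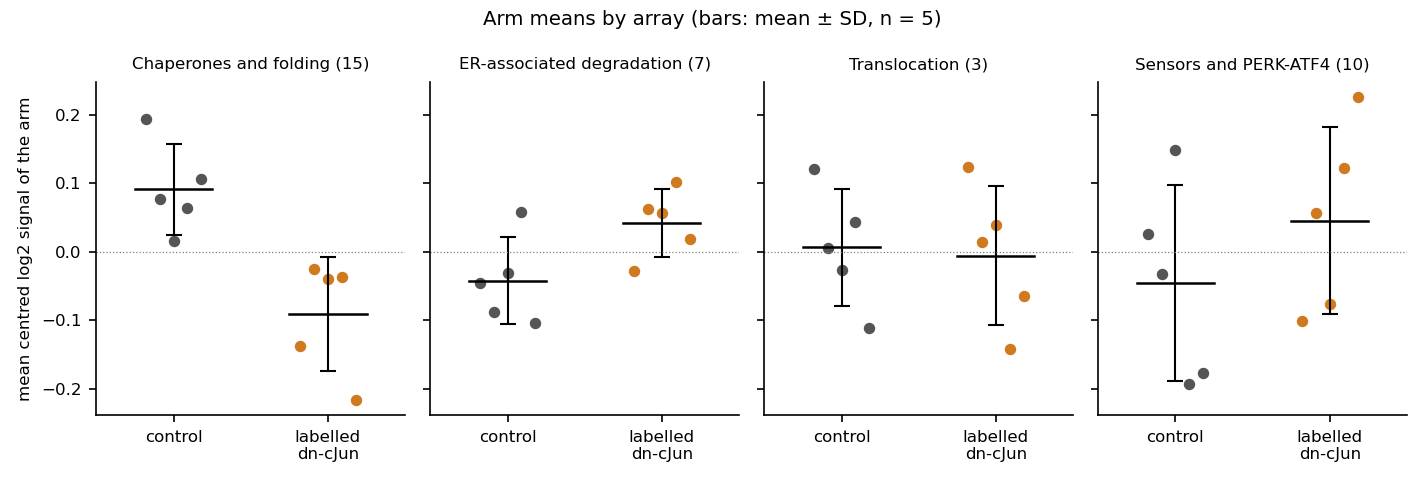
Mean centred log2 signal of each arm in each array, controls in grey and arrays labelled dn-cJun in orange, with the mean and SD of 5 arrays and the number of genes in brackets. The chaperone arm lies from 0.01 to 0.19 in the controls and from -0.22 to -0.02 in the others, and the other 3 arms overlap.

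Known stress elements were searched in the promoters of these genes. RefSeq promoter windows of GRCm38.p6, 250 bases before to 50 after the start of the gene, were at hand for 29 of the 35 genes. Manf, Hyou1, Hspa13, Derl1, Sec61a1 and Atf6 had no entry. The windows below belong to Hspa5, Dnajb11 and Asns, which the rule for named genes gives, and to Hsp90b1 and Herpud1, chosen after their values were seen because they lie in different arms. Capitals mark an ER stress response element (ERSE, read by ATF6 and XBP1 with NF-Y), its shorter form ERSE-II, the C/EBP-ATF response element (CARE, read by ATF4) or an AP-1 site. The Hspa5 window has an ERSE match at bases 186 to 204 and an AP-1 match at bases 69 to 75. Dnajb11 has an ERSE-II at bases 258 to 268. Herpud1 has an ERSE-II at bases 199 to 209 and a CARE at bases 139 to 146, Asns has a CARE at bases 228 to 235, and Hsp90b1 has an ERSE at bases 39 to 57 and another at bases 144 to 162.
Hspa5, chr2:34771840-34772139, plus strand: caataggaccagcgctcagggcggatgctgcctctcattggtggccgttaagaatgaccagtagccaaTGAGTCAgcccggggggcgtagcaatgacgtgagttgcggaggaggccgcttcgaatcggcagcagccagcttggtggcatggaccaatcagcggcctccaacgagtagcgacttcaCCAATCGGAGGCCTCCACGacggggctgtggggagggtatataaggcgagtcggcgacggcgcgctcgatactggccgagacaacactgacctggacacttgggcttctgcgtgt
Dnajb11, chr16:22857595-22857894, plus strand: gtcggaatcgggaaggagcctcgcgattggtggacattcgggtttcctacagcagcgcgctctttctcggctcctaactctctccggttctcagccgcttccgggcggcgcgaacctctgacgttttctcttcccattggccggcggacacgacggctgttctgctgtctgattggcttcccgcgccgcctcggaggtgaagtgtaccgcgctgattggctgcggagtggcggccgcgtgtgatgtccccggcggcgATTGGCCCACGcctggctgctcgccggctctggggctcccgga
Hsp90b1, chr10:86705395-86705694, minus strand: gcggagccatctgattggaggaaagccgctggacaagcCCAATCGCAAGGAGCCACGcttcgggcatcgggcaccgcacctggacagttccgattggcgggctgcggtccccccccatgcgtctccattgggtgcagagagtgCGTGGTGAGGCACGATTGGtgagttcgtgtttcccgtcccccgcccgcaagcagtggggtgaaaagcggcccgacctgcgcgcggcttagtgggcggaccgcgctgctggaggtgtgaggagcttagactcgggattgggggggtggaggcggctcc
Herpud1, chr8:94386179-94386478, plus strand: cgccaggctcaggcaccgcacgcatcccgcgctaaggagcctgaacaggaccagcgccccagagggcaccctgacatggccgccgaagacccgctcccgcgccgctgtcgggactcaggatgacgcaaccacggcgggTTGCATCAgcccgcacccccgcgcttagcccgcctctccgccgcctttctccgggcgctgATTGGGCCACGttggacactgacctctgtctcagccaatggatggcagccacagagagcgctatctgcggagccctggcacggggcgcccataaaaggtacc
Asns, chr6:7693160-7693459, minus strand: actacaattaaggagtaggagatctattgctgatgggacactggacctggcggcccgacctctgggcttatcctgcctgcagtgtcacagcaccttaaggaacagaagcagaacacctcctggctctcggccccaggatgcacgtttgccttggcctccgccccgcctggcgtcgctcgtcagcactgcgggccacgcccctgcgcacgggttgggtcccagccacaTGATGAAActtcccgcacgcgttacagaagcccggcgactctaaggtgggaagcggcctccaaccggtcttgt

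The ERSE was searched as CCAAT and then CCACG with 9 free bases between them, and the ERSE-II as ATTGG and then CCACG with 1 free base, on both strands. Only exact matches of the fixed bases were counted, so variant copies are missed. An ERSE lay in the windows of 9 of 29 members, against 0.119% of all 32851 windows. It was found in 7 of 12 chaperone arm genes (Hspa5, Hsp90b1, Calr, Canx, Pdia6, Creld2 and Dnajc3), in Syvn1 and Derl3 of 6 degradation genes, and in 0 of 9 sensor and PERK-ATF4 genes. The element was first described in promoters of this family, so its presence is no independent observation. Among the 7 chaperone genes with an ERSE, the log2 differences ran from -0.31 for Hsp90b1 to -0.01 for Pdia6. An ERSE-II lay in Dnajb11, which was lower, and in Herpud1, whose signal was higher, against 0.0365% of all windows. The CARE, TGATGNAA, lay in Herpud1, Trib3, Asns and Chac1 (3.97% of all windows). The AP-1 site, TGANTCA, lay in Hspa5, Sel1l, Sec61b, Eif2ak3 and Ddit3, 17.2% of the members with a window against 7.81% of all windows. Of these 5, Hspa5 alone had an unadjusted p under 0.05. The middle base of the AP-1 pattern was left free, and the matches in Sel1l and Eif2ak3 read TGATTCA. The UPRE, TGACGTGG, was in no member window (0.676% of all windows), and the CRE, TGACGTCA, was in that of Ppp1r15a (1.79%). CCAAT, which is part of the ERSE and overlaps ERSE-II on the other strand, was in 22 of 29 members (75.9%) and in 37.4% of all windows. A match describes these letters and not binding.

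Factors of ER-associated degradation, which return misfolded proteins to the cytosol for ubiquitination, had 5 of 7 members above 0 and a median of 0.05, and no member passed over all genes. Without controls 14 and 15, 3 of the 7 were above 0, so no direction is given for this arm. Herpud1 encodes a membrane protein with a ubiquitin-like domain that helps to assemble the degradation complex and is among the genes most induced by ER stress. It measured 12.79, 13.50, 13.17, 13.45 and 13.38 in the controls and 13.46, 13.64, 13.55, 14.05 and 14.17 in the labelled dn-cJun arrays. Only dn-cJun 16 lay within the range of the controls, and control 11 was the lowest array. Its log2 difference was 0.51 (SE 0.16), 1.43-fold, and did not pass (limma adjusted p = 0.150). Dropping any single array gave 0.40 to 0.59, and dropping controls 14 and 15 gave 0.62 (limma adjusted p = 0.159).

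The second Herpud1 probe set had 12.51, 13.16, 12.85, 12.92 and 12.92 in the controls and 13.17, 13.34, 13.30, 13.35 and 13.30 in the labelled dn-cJun arrays. The groups did not overlap, by a margin that rests on control 12 and dn-cJun 16, and the difference was 0.42 (SE 0.10, limma adjusted p = 0.0747 with every probe set as a unit). Both probe sets of Herpud1 were thus on the opposite side of 0 from Manf, Dnajb11 and 2 of the 3 Hspa5 probe sets.

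Derl2, a Derlin of the channel through which substrates leave the ER, was at -0.14 (SE 0.06, limma adjusted p = 0.349). Its controls were at 13.02, 13.23, 13.24, 13.09 and 13.09 and its arrays labelled dn-cJun at 12.93, 13.05, 12.90, 13.05 and 13.06, which overlap. The other Derl2 probe set was at -0.02 (SE 0.11). The ubiquitin ligase Syvn1 measured 10.35, 10.32, 10.39, 10.23 and 10.12 in the controls and 10.20, 10.34, 10.36, 10.55 and 10.32 in the labelled dn-cJun arrays, which overlap, at 0.07 (SE 0.09). Its adaptor Sel1l was at 0.05 (SE 0.09), with further probe sets at 0.21, -0.05, 0.16 and -0.18, on both sides of 0. Derl1, another Derlin, was at 0.03 (SE 0.08). The 3 further probe sets of Derl1 were at -0.07, -0.16 and -0.27, on the other side of 0. Edem1, which picks out misfolded glycoproteins, was at -0.10 (SE 0.09) on one probe set and at 0.24 (SE 0.09) on the other, so its direction depends on the probe set. The first measured 11.84, 11.67, 11.41, 11.53 and 11.36 in the controls and 11.52, 11.42, 11.54, 11.45 and 11.41 in the labelled dn-cJun arrays, which overlap. Derl3 varied most within this arm, from 6.40 in control 12 to 8.18 in control 14, and its difference was 0.15 (SE 0.29).

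**Figure D4:**
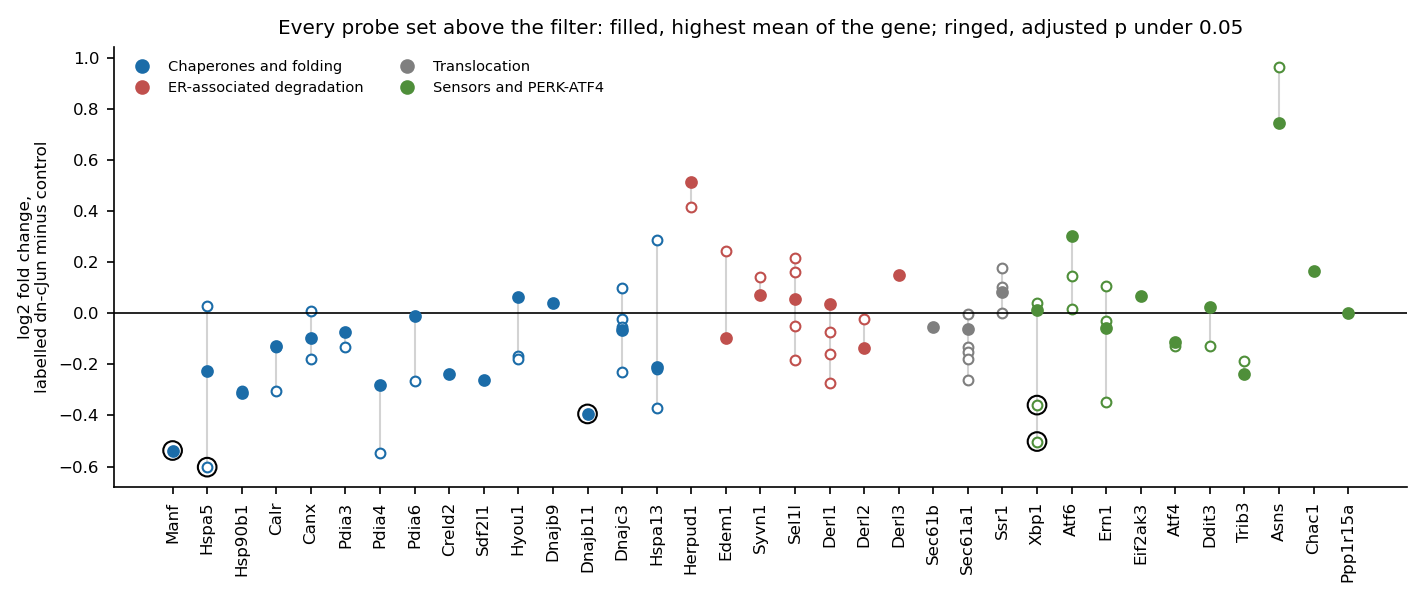
Log2 fold change of every probe set above the filter for each of the 35 genes, coloured by arm; filled points are the probe set with the highest mean, rings mark an adjusted p under 0.05 in the fit with every probe set as a unit. The 5 ringed probe sets are those of Manf and Dnajb11, 1 of Hspa5 and 2 of Xbp1.

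No subunit of the entry machinery passed the test. Sec61a1 and Sec61b, subunits of the channel through which new proteins enter the ER, were at -0.06 (SE 0.08) and -0.05 (SE 0.08), and Ssr1, a subunit of the translocon-associated complex, was at 0.08 (SE 0.08). Sec61a1 measured 12.49, 12.38, 12.30, 12.63 and 12.23 in the controls and 12.49, 12.39, 12.24, 12.34 and 12.27 in the labelled dn-cJun arrays. Sec61b measured 12.98, 12.87, 12.94, 12.89 and 12.80 in the controls and 12.95, 12.87, 12.97, 12.60 and 12.82 in the labelled dn-cJun arrays. Ssr1 measured 11.80, 11.67, 11.59, 11.52 and 11.53 in the controls and 11.84, 11.69, 11.82, 11.55 and 11.62 in the labelled dn-cJun arrays. The groups overlap in all 3 genes. The 95% intervals of the log2 differences were -0.24 to 0.11, -0.22 to 0.11 and -0.09 to 0.25. All 6 probe sets of Sec61a1 were below 0, between -0.26 and -0.0021, and none had an unadjusted p under 0.05.

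The sensors and the PERK-ATF4 branch had 7 of 10 members above 0, a median of 0.02, and none of them passed. Under equal array medians or equal trimmed means 5 of the 10 were above 0. Without controls 14 and 15, 3 of the 10 were above 0 and the median was -0.035, so no direction is given for this arm. Atf6 was the one sensor with an unadjusted p under 0.05. It measured 9.46, 10.01, 9.69, 9.67 and 9.75 in the controls and 9.84, 9.94, 9.79, 10.04 and 10.49 in the labelled dn-cJun arrays, which overlap, with dn-cJun 20 the highest. The difference was 0.30 (SE 0.14, limma adjusted p = 0.320). Dropping controls 14 and 15 left it at 0.30 (limma adjusted p = 0.461), and no sensor then had an unadjusted p under 0.05. The other 2 probe sets were at 0.15 and 0.02. Ern1, which encodes IRE1, was at -0.06 (SE 0.14), and Eif2ak3, which encodes PERK, at 0.07 (SE 0.11).

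Xbp1 gave 2 answers. Its brightest probe set was at 0.01 (SE 0.06), with 13.46 to 13.60 among controls and 13.42 to 13.63 in the labelled dn-cJun arrays. A second probe set had 13.39, 13.27, 13.36, 13.47 and 13.26 in the controls and 13.01, 13.02, 12.88, 12.99 and 13.03 in the labelled dn-cJun arrays, with no overlap and a difference of -0.36 (SE 0.06, limma adjusted p = 0.0208 with every probe set as a unit). Another had 11.81, 11.70, 11.90, 11.76 and 11.75 in the controls and 11.004, 11.12, 11.31, 11.32 and 11.66 in the labelled dn-cJun arrays, again with no overlap, at -0.50 (SE 0.11, limma adjusted p = 0.0465). The fourth, was at 0.04 (SE 0.12). The sources used here do not say whether any of them separates the spliced from the unspliced mRNA, or reads a different end of it. In the fit with every probe set as a unit, 5 of the 85 member probe sets, those of 4 genes, passed (0.744% of all probe sets did), and 17 had an unadjusted p under 0.05 (13.6% of all).

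Downstream of PERK, Atf4 mRNA was at -0.11 (SE 0.12) and Ddit3, the pro-apoptotic factor CHOP, at 0.02 (SE 0.16). ATF4 is controlled mainly at translation, which an mRNA array does not read. Ppp1r15a, the phosphatase subunit that ends the PERK signal, was at 7.0e-05 (SE 0.16), and Chac1, a glutathione-degrading enzyme induced by ATF4, at 0.17 (SE 0.17). Chac1 measured 8.71, 8.71, 9.18, 8.74 and 8.99 in the controls and 9.08, 9.18, 8.44, 9.06 and 9.41 in the labelled dn-cJun arrays, with overlap. Trib3, a pseudokinase induced by ATF4 and CHOP, was at 8.45, 7.62, 8.27, 8.58 and 8.68 in the controls and 7.95, 8.41, 7.78, 7.94 and 8.34 in the labelled dn-cJun arrays. Its ranges overlap, with a difference of -0.24 (SE 0.20, limma adjusted p = 0.628), and of -0.03 without controls 14 and 15.

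Asns, asparagine synthetase, had the largest difference of the 35 genes and the widest spread. It measured 9.27, 9.93, 9.73, 7.64 and 7.65 in controls 11 to 15 and 9.47, 8.86, 9.77, 10.25 and 9.57 in the labelled dn-cJun arrays. The difference was 0.74 (SE 0.43, limma adjusted p = 0.451). The lowest values were those of controls 14 and 15, where Xist was high, on both probe sets, at 6.31 and 6.56 on the second. Without them the difference was -0.06 (limma adjusted p = 0.946). The pooled SD within groups was 0.87 for Asns, 0.53 for Derl3, and 0.07 to 0.36 for the other 33 genes.

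**Figure D5:**
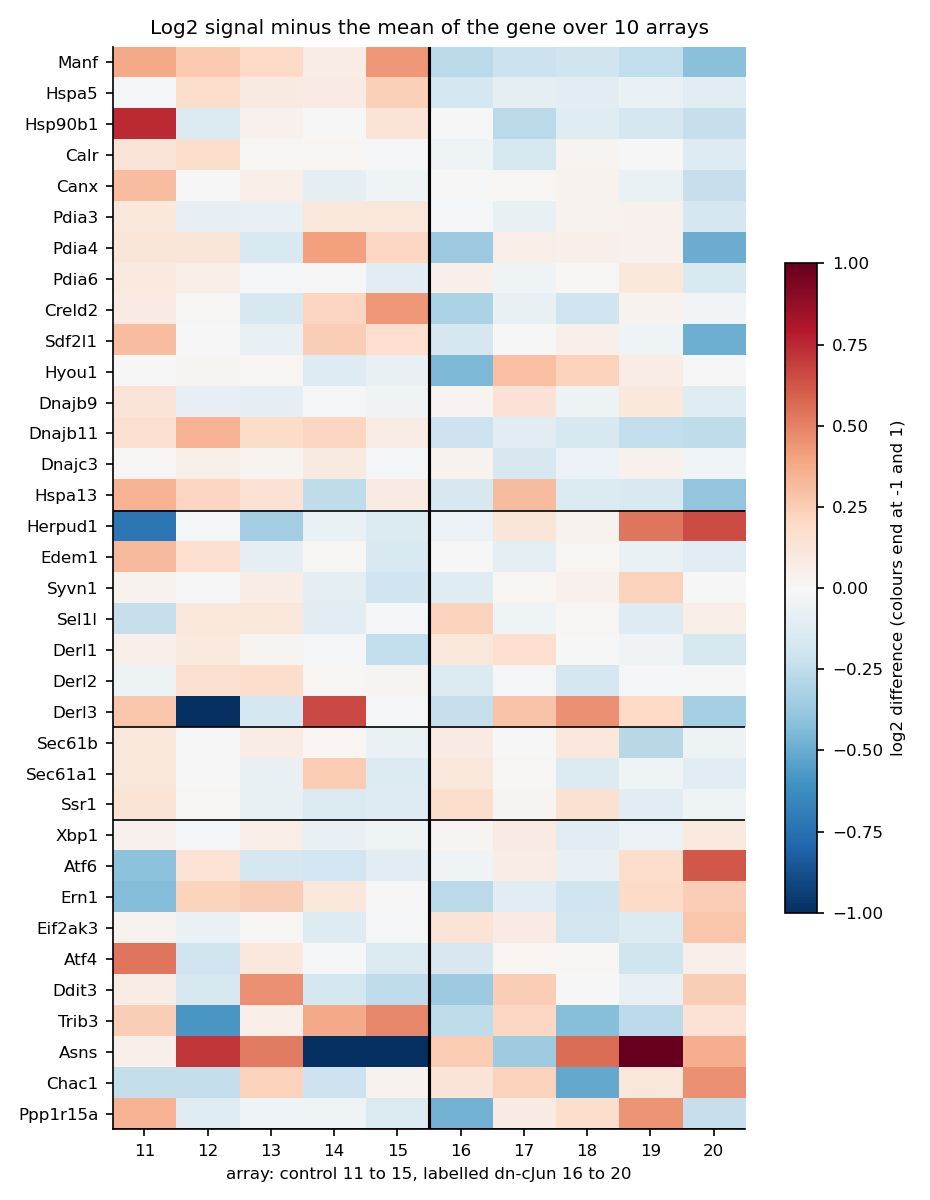
Log2 signal of the 35 genes in each of the 10 arrays minus the mean of the gene, with controls left and arrays labelled dn-cJun right of the vertical line and the arms in blocks from chaperones at the top to the sensors at the bottom. Manf and Dnajb11 change sign at the line in all 10 arrays, Herpud1 is highest in dn-cJun 19 and 20 at 14.05 and 14.17, and Asns is at 7.64 and 7.65 in controls 14 and 15.

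Other genes of ER proteostasis were taken from lists drawn up beside the 35. Of 31 further folding and quality control genes tested, 20 were above 0, with a median of 0.05. At an unadjusted p under 0.05, 5 of them were higher and 0 lower, where 7.42% of all genes were higher and 7.47% lower. In either direction this was 16.1% of the list against 14.9% of all genes. After adjustment, where 0.777% of all genes passed in either direction, 1 of the list passed and was higher. This was Fkbp11, a proline isomerase of secretory cells, which rose from 10.52 ± 0.21 to 11.09 ± 0.17 (SD, n = 5 each), at 0.57 (SE 0.11, limma adjusted p = 0.0323). Of 23 further degradation factors 18 were above 0 with a median of 0.06 and none past the threshold, and Edem3, a relative of Edem1, had the smallest p, at 0.35 (SE 0.08, limma adjusted p = 0.0735). Further translocation and glycosylation genes had a median of 0.0092 over 27, with Ssr2 of the complex of Ssr1 at -0.31 (SE 0.10, limma adjusted p = 0.166). Further sensors and mediators had a median of -0.0022 over 21, with Bcl2l11, a pro-apoptotic protein, at -0.40 (SE 0.10, limma adjusted p = 0.0947).

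Of 35 further targets of ATF4 tested, 14 were above 0 and 21 below, with a median of -0.07. At an unadjusted p under 0.05, 4 were higher and 5 lower, 25.7% against 14.9% of all genes. Groups of arrays did not overlap in 5 of the 35, where this held for 4.22% of all genes. The only one past the threshold was Cebpb, a transcription factor of the liver that ATF4 induces but that many other signals induce too. It rose from 12.65 ± 0.09 to 13.004 ± 0.08 (SD, n = 5 each), at 0.36 (SE 0.06, limma adjusted p = 0.0274). Chaperones of other compartments were counted in the same way. Cytosolic chaperones had a median of -0.04 over 23 with 15 below 0 and none past the threshold, with Tcp1, a subunit of the cytosolic chaperonin, at -0.37 (SE 0.09, limma adjusted p = 0.0935). Mitochondrial chaperones had a median of 0.07 over 9, with Dnaja3, a mitochondrial DnaJ protein, at 0.34 (SE 0.10, limma adjusted p = 0.148). The differences between these lists and the chaperone arm were not tested.

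Cells other than hepatocytes also carry much ER, among them plasma cells and macrophages. The plasma and B cell markers had 6 of 9 genes above the filter, their summed linear signal was 1042 to 1369 among controls and 914 to 1487 in the labelled dn-cJun arrays. Tnfrsf17, Irf4 and Pou2af1 lay below the filter, and Ighm, Jchain, Prdm1, Cd79a, Cd79b and Ms4a1 lay above it. All 6 of the latter had a difference above 0, with a median of 0.12, and none had an unadjusted p under 0.05. Pancreatic acinar markers had 4 of 9 above the filter, with sums of 467 to 694 and 403 to 611. Cela3b, Cela2a, Cel and Prss2 lay above it, and Clps, Ctrb1, Pnliprp1, Cpb1 and Cpa1 lay below it. Macrophage markers had 10 of 11 above the filter and summed to 26857 to 41880 among controls and 25730 to 30629 in the labelled dn-cJun arrays. Of the macrophage markers 7 of 10 were below 0, where 49.7% of all genes were. Lyz2 at -0.70 and Cd5l at -0.57 were past the threshold, where 0.432% of all genes were lower and past it. The mean centred signal of these 10 markers was -0.15 and -0.18 in controls 11 and 12. It was 0.14, 0.36 and 0.28 in controls 13 to 15, and -0.16 to 0.05 in the labelled dn-cJun arrays. Controls 14 and 15 are those with high Xist. Stellate cell sums were 13831 to 17469 and 14373 to 16287, endothelial sums 3217 to 3634 and 3204 to 3843, T and NK cell sums 1324 to 2232 and 1554 to 2692, and bile duct sums 408 to 494 and 268 to 516. The part of macrophage content in the lower Manf, Dnajb11 and chaperone signals was not tested.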

How the data were processed

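RNA of 10 livers was measured on Affymetrix mouse expression arrays, per the labels. The authors deposited 1 linear intensity per probe set and array. The software behind them, the detection calls and the probe positions are not given in the sources used here, and neither is why the deposited columns differ in overall scale. Values were taken as log2(intensity + 16), a scale that understates changes of dim genes. Array medians spanned 0.50, above a limit of 0.1, so quantile normalization was applied (limma 3.58.1, R 4.3.3).

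Of 45101 probe sets, 64 controls were left out after normalization, 34945 carry 1 symbol, 932 carry several and 9160 have no name in GEO's annotation of the platform. The brightest probe set on average stands for a gene. Genes under percentile 40 of mean signal were dropped, and 12736 remained. Groups were compared with limma (lmFit and trended eBayes). Tests were two-sided, with p-values adjusted by Benjamini-Hochberg over all genes and a threshold of 0.05. The labels say that each array holds a separate mouse. Precision is limited by having 10 arrays.

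The members, arms, further lists and motifs were chosen with earlier results of these data known. Values in every array are given for members past the threshold, for Manf and Hspa5 and for up to 4 of each arm with the smallest p. Of each further list, members past the threshold are named, or else the one with the smallest p. Probe sets other than the representative one were singled out after their values were seen. Alternatives changed the scaling, pseudocount, filter, probe set rule, moderation, weights, unit and threshold and left out arrays. Figures were drawn with matplotlib 3.10.9.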

Additional observations from a re-analysis of the deposited data

Results flagged for a closer look

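Ppp1r15a, the phosphatase subunit that ends the PERK signal, had 1 control array far from the other 4: control 11 was at 9.27 and the others lay between 8.77 and 8.87. It was flagged because its gap to the nearest array was 0.794 of the range of the group, above the critical value of 0.71 for 5 arrays. The check covered 78 groups (35 genes and 4 arm means, in each of 2 groups of arrays), and chance alone flags about 1 in 20. The extraction entry of control 11 names Trizol, whereas that of each of the other arrays names only Affymetrix. Without control 11, the Ppp1r15a difference was 0.09, against 7.0e-05 with it.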

How the results depend on the processing

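Manf stayed lower and past the threshold in all 10 fits that dropped a single array and in 12 of 13 other settings. For Dnajb11 this held in 3 of 10 and 10 of 13. Both kept their sign in all of these fits. Among the other settings, the filters, the probe set rules and the eBayes options left both log2 differences unchanged, so their sign was fixed there. Members past the adjusted threshold, 2 as reported, numbered 4 in the values as deposited, 4 with every probe set as a unit, 3 without probe sets ending in _x_at or _s_at, 3 at an adjusted p under 0.1, 1 with equal array medians, 1 without controls 14 and 15, and 0 with eBayes without trend (limma; 4 had an unadjusted p under 0.05 there). All genes past it, 99 as reported, numbered 490, 170 (of probe sets), 77, 250, 65, 52 and 9 in the same order. With 1 array left out the members numbered 1 to 2. Members at an unadjusted p under 0.05, 9 as reported, numbered 15 in the values as deposited and 4 without trend, and 5 to 10 with 1 array left out. Medians in the values as deposited, where the median of all genes was -0.19, were -0.32 for chaperones, -0.15 for ER-associated degradation, -0.20 for translocation and -0.18 for the sensors; with equal trimmed means the chaperone median was -0.13. With 1 array left out these medians ran from -0.23 to -0.14, 0.01 to 0.09, -0.08 to 0.0075 and -0.02 to 0.08. Changes of sign were as follows. In the values as deposited, the log2 difference was Xbp1 -0.083, Ssr1 -0.12, Dnajb9 -0.15, Derl1 -0.16, Sel1l -0.15, Hyou1 -0.14, Syvn1 -0.14, Chac1 -0.058, Ppp1r15a -0.22, Eif2ak3 -0.15, Ddit3 -0.20 and Derl3 -0.058. With equal array medians, the log2 difference was Pdia6 0.010, Ppp1r15a -0.062 and Ddit3 -0.042. With equal trimmed means, the log2 difference was Pdia3 0.031, Pdia6 0.042, Ppp1r15a -0.035 and Ddit3 -0.017. With a pseudocount of 1, the log2 difference was Ppp1r15a -0.00079. With probe sets averaged per gene, the log2 difference was Derl1 -0.12, Ddit3 -0.052, Xbp1 -0.20, Hyou1 -0.094 and Edem1 0.074. Without probe sets ending in _x_at or _s_at, the log2 difference was Xbp1 -0.36, which passed (limma adjusted p = 0.0253), and Hyou1 -0.17. With array weights, the log2 difference was Pdia6 0.013. Without controls 14 and 15, the log2 difference was Xbp1 -0.024, Derl1 -0.042, Syvn1 -0.00033, Asns -0.058, Ppp1r15a -0.062 and Ddit3 -0.11. With single arrays dropped, 10 members crossed 0, with these ranges: Pdia6 -0.041 to 0.024, Atf4 -0.18 to 0.0072, Ppp1r15a -0.11 to 0.12, Ddit3 -0.038 to 0.14, Derl3 -0.11 to 0.33, Xbp1 -0.010 to 0.042, Derl1 -0.022 to 0.079, Ern1 -0.17 to 0.0041, Hyou1 -0.0042 to 0.18 and Sec61b -0.086 to 0.0075. The cause of these changes was not tested. No paired analysis was possible because the control and dn-cJun arrays share no replicate number. Signal over background could not be judged, since the files used here hold no detection calls.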
